A study of Mus musculus with 2 samples.

Results

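Mucosal surfaces are covered by secreted and membrane-bound proteins that trap, coat or kill microbes. Gel-forming mucins make the mucus layer, membrane mucins coat the cell surface, and soluble lectins, surfactant collectins, peptidoglycan recognition proteins, defensins and BPI-fold proteins act on the microbes themselves. The genes are best known from airway, gut, gland and skin. In the pituitary, the stem cells line a cleft that derives from oral ectoderm.

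The genes were chosen by name, as the rows of the table whose symbol belongs to the mucin, secretoglobin, BPI-fold, Reg3, surfactant, lysozyme, beta-defensin, peptidoglycan recognition, trefoil factor, chitinase-like or galectin families, or is Agr2, Pigr, Camp, Msln or Dmbt1. This gave 41 of 20647 genes. In GENCODE M21, 141 protein-coding symbols fit the same rule. The other 100 had no row in the table, so they have no value here. Among the chosen genes are 8 mucins, 8 galectins, 1 galectin-3-binding protein, 4 peptidoglycan recognition proteins, 4 beta-defensins, 4 BPI-fold genes, 3 secretoglobins and 1 surfactant protein. The other 8 are Msln, Chil1, Pigr, Reg3g, Agr2, Tff2, Lyz2 and Camp.

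RNA-seq had been made from 1 library of cystic and 1 library of dense organoids, which are cell clusters grown in culture from the mouse pituitary. Both came from male mice aged 10 weeks and both were kept in PitOM medium. The cystic organoids were at passage 2 and came from a GHCre/iDTR mouse, which carries a Cre recombinase named for the growth hormone gene together with a Cre-dependent diphtheria toxin receptor. The dense organoids were at passage 4 and came from a -/iDTR mouse, which carries the receptor allele without the Cre. The labels name no toxin treatment and do not say how many mice or wells went into a library. Organoid type, passage, genotype and mouse differ together between the libraries and cannot be told apart. In bulk RNA, fewer cells of a type and less RNA per cell cannot be told apart either.

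The cystic library held 17247431 reads and the dense library 19258313. Values are the deposited normalized counts, in which 1 read equals 1.05 for the cystic and 0.956 for the dense library. With 1 library per group there is no test, and every interval given is a 95% counting interval that leaves out the spread between cultures. Where a library holds no read, folds are lower bounds computed against 3 reads there, equal to 3.14 normalized counts for the cystic and 2.87 for the dense library. Such a bound takes no account of the counting error in the library with reads.

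Markers fixed for the tissue were present in both libraries, except that 2 of the 9 pituitary markers, Lhx3 and Six6, had no read in the dense one. The simple epithelial keratin and Epcam list summed to 97314 normalized counts in cystic organoids, against 11527 in dense ones. Epcam alone gave 28114 and 10446 of these sums, so most of the dense sum was Epcam. The squamous list, led by Krt14 and Krt5, summed to 560 and 492481. Markers of leukocytes differed from gene to gene. Ptprc, the pan-leukocyte gene, had 1.05 in the cystic library and no read in the dense one, and Csf1r, the macrophage growth factor receptor gene, had 1.05 and 0.956. The 8 macrophage markers with a row summed to 457 and 3142, of which 373 and 3123 were Cd68, a lysosomal gene that other cells also express. Aif1 and Mrc1 had 47.1 and 27.2 in the cystic library, with no read in the dense one. Cx3cr1 and Fcer1g had 4.19 and 3.14 in the cystic library and no read in the dense one. Itgam went the other way, with no read in the cystic library and 18.2 in the dense one. Of the 8 neutrophil markers 4 had a row, and they summed to 2569 and 468. S100a8 and S100a9, which epithelia also express, had 1110 and 1448 in the cystic library and 66.0 and 185 in the dense one. Cxcr2, a chemokine receptor gene of neutrophils, had 2.09 and 218, and Ly6g had 9.42 and no read.

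Sequence upstream of the transcription start was examined for 27 of the 41 genes, those with an entry in the RefSeq promoter table (GRCm38.p6). In the 250 bases before the first listed start, 5 words were searched on both strands: GGGANTTTCC for NF-kB, TTGCNNAA for C/EBP, TGANTCA for AP-1, TTCNNNGAA for GAS and GAAANNGAAA for ISRE. A match is only a description of the letters. The 3 sequences with a word among genes that had a mean of at least 50 normalized counts and differed at least 4-fold are shown first, with the word in capitals, followed by the 2 genes with most normalized counts in cystic organoids, among those with an entry, that had no read in dense organoids. Each runs 5′ to 3′ on the gene's strand and stops before the first annotated exon.
Pglyrp1, chr7:18884440-18884679, plus strand, NF-kB word: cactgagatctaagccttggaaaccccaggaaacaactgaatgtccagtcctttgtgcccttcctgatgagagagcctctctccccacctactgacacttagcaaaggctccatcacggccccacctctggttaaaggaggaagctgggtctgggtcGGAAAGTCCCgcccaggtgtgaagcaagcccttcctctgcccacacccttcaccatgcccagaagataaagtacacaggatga
Lgals9, chr11:78984947-78985174, minus strand, ISRE word: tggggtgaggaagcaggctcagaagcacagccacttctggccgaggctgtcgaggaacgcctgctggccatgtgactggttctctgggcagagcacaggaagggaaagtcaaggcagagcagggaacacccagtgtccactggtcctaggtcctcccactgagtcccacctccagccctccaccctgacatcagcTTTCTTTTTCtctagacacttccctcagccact
Bpifc, chr10:86011896-86012110, minus strand, AP-1 word: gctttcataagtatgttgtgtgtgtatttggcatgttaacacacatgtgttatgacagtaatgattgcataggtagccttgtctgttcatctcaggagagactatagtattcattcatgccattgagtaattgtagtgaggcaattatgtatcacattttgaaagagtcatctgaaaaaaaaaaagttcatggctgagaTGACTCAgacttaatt
Chil1, chr1:134181906-134182155, plus strand, no word: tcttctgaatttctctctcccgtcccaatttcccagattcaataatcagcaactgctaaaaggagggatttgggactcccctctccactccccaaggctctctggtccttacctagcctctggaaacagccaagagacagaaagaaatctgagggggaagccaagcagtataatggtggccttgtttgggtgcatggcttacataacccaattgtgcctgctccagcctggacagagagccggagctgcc
Reg3g, chr6:78468875-78469124, minus strand, no word: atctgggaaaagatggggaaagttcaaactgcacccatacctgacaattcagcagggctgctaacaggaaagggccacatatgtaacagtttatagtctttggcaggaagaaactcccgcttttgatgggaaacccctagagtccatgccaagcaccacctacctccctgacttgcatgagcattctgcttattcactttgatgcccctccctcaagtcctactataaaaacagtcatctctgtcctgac

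The NF-kB word lay 93 bases before the start of Pglyrp1, the ISRE word 55 bases before that of Lgals9, and the AP-1 word 51 bases before that of Bpifc. The NF-kB word was found in 1 of the 27 promoters (3.70%), against 0.337% of all 27025 promoters of the same length. The AP-1 word was found in 3 (11.1%), against 6.87% of all, and the ISRE word in 1 (3.70%), against 3.04%. The C/EBP word was found in 2 (7.41%), against 9.55%, and the GAS word in 1 (3.70%), against 7.18%. The 27 promoters were poor in CpG, with a median ratio of observed to expected CpG of 0.160. The median was 0.378 over all promoters and 0.776 over the promoters of all genes with a mean of at least 50 that stayed within 4-fold. Among all genes at that mean, it was 0.523 for those at least 4-fold higher in cystic organoids. For those at least 4-fold higher in dense organoids it was 0.539.

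As a whole the genes took 302467 normalized counts in the cystic library, 1.68% of its total, and 13348 in the dense library, 0.0725%. A few genes carried most of this. In cystic organoids Msln gave 53.3% and Sftpd 31.9% of the summed counts, and with Pglyrp1 and Lgals3bp they made 92.5%. In dense organoids the galectin genes Lgals3 and Lgals7 gave 49.5% and 15.7%, and with Pglyrp4 and Lgals8 they made 84.1%. Lgals3 gave 1.91% of the cystic sum.

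**Figure D1:**
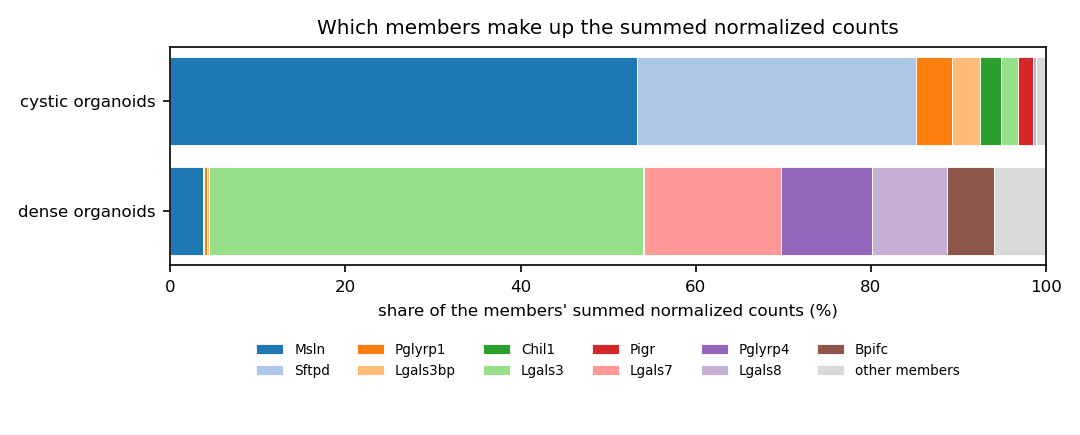
Share of the summed normalized counts (x axis, percent) that each gene contributed in the cystic and the dense library, 1 library each. Msln and Sftpd fill most of the cystic bar, and Lgals3 takes 49.5% of the dense bar.

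Of the 41 genes, 21 had a mean of both libraries of at least 50 normalized counts, the level needed for a call. A call is a log2 ratio, with a pseudocount of 1, of at least 2 either way, which is a 4-fold difference. Of these 21, 12 were called higher in cystic organoids (57.1%), where 7.86% of all 11279 genes at that level were. In dense organoids 5 were called higher (23.8%), against 7.65% of all genes. The 4 without a call were Lgals3, Lgals8, Muc15 and Pglyrp3. The median log2 ratio of the 21 was 4.00, against -0.033 for all genes at that level. A gene absent from one library passes the level only through the other, so these counts describe the genes that passed and not the 41.

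Without a level filter, 13 of the 41 genes had reads in the cystic library only (31.7%), against 13.7% of all 20647 genes. Another 11 had reads in the dense library only (26.8%), against 11.1% of all genes. Many of these held few reads, and 17 of the 41 had reads in both. Around the level for a call, Lgals12 lay just inside with a mean of 50.4 and Bpifb1 just outside with 46.6.

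**Figure D2:**
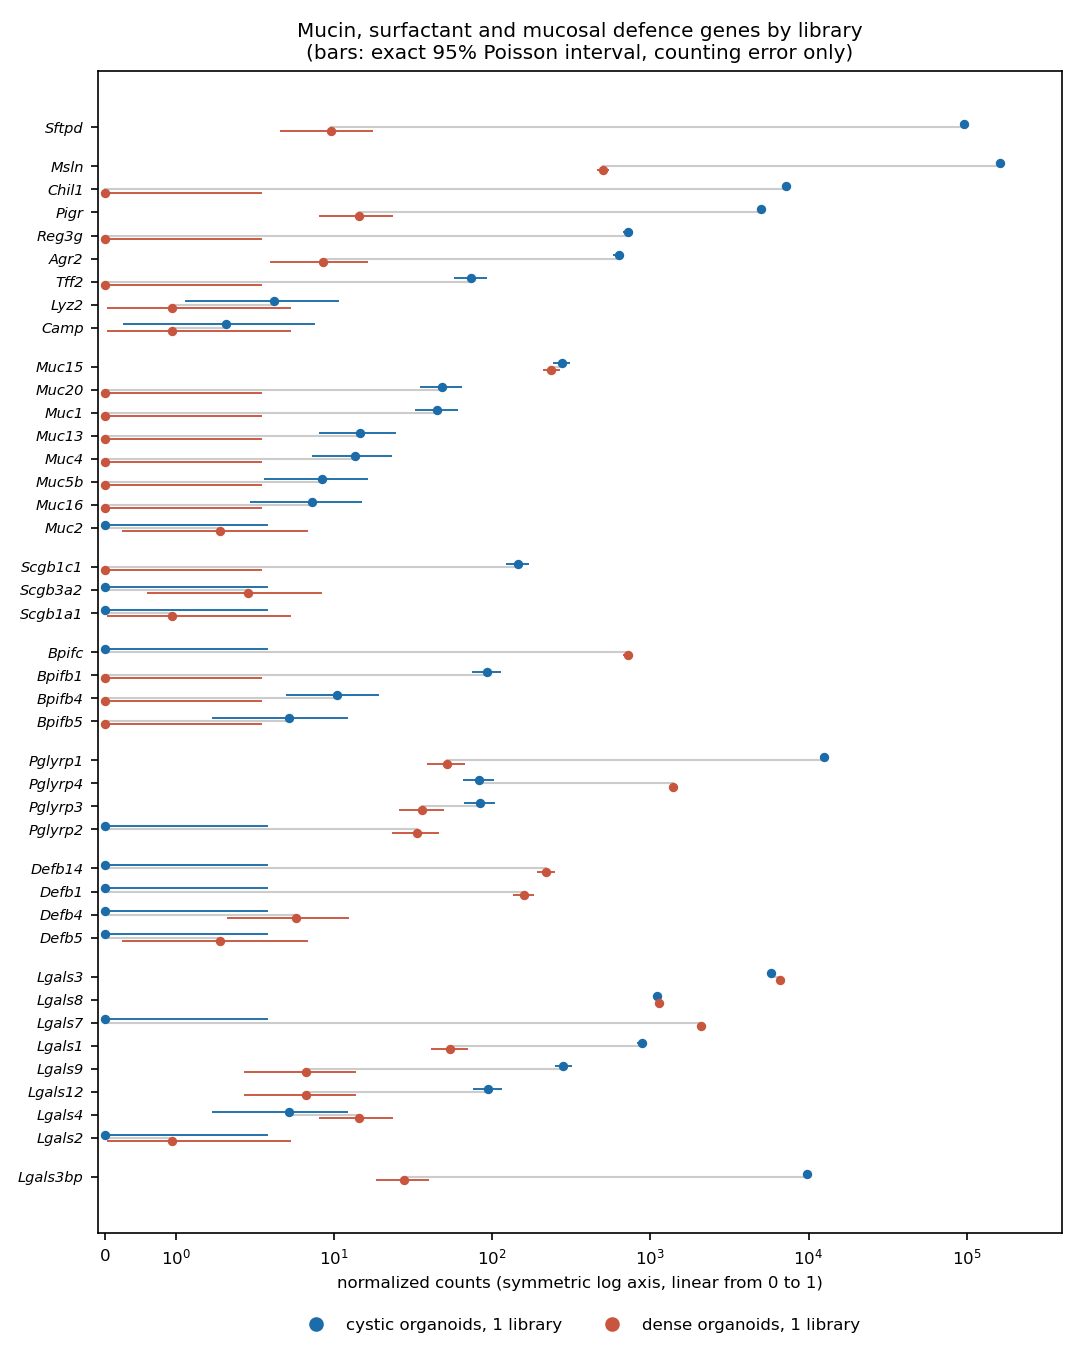
Normalized counts (x axis, symmetric log) of the 41 genes in cystic and dense organoids, 1 library each, with exact 95% Poisson intervals as bars. Sftpd, Msln and Chil1 lie far apart between the libraries, Lgals3, Lgals8 and Muc15 nearly coincide, and all 4 beta-defensins sit at 0 in the cystic library.

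Msln and Sftpd held the largest cystic values among the 41 genes. Sftpd (ENSMUSG00000021795), the collectin surfactant protein D that binds sugars on microbes, had 96428 normalized counts (95807 to 97053) in cystic and 9.56 (4.58 to 17.6) in dense organoids. Per kilobase of exon it reached 39896 and ranked 11 of 20589 genes in the cystic library, against 3.96 in the dense one. It is the 1 surfactant protein gene among those chosen. Msln (ENSMUSG00000063011), the lipid-anchored surface protein mesothelin, had 161161 (160357 to 161968) against 506 (463 to 551), which is 319-fold (293 to 348). Its level per kilobase, 52598, ranked 9 in the cystic library. Unlike Sftpd, Msln was clearly detected in dense organoids, with 529 reads. MUC16, its binding partner known from human cells, had as Muc16 only 7.32 (2.94 to 15.1) in cystic organoids but no read in dense ones.

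**Figure D3:**
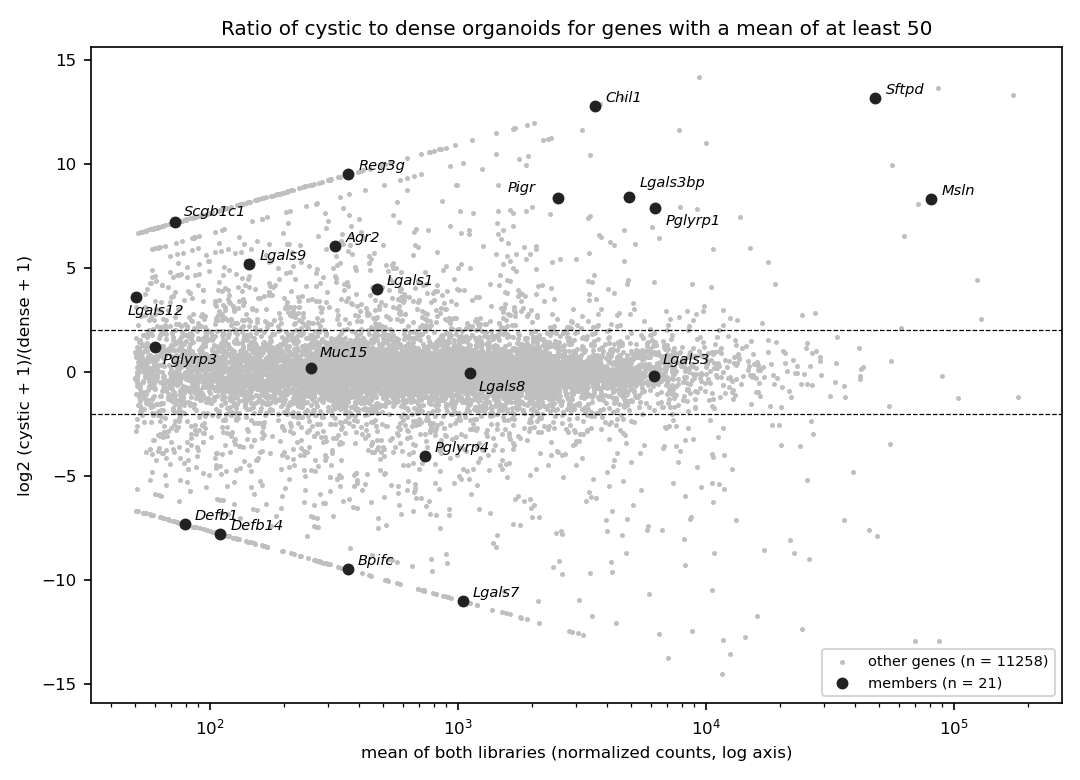
Log2 ratio of cystic to dense organoids (y axis, pseudocount 1) against the mean of both libraries (x axis, log) for all genes with a mean of at least 50. The 21 named genes range from -11.03 for Lgals7 to 13.16 for Sftpd, and the slanted edges are genes with no read in 1 library.

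Chil1 (ENSMUSG00000064246), a chitinase-like lectin without enzyme activity, had 7157 (6988 to 7329) in cystic organoids but no read in dense ones. It was at least 2496-fold higher and stood at 2552 normalized counts per kilobase. Pigr (ENSMUSG00000026417), which carries polymeric immunoglobulins across epithelia, had 5046 (4904 to 5190) against 14.3 (8.03 to 23.7). The joining chain gene of its cargo, Jchain, named after its values were seen, had 2.09 in cystic and 0.956 in dense organoids. Pigr reads were thus abundant in the cystic library while Jchain rested on 2 reads.

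Reg3g (ENSMUSG00000030017), a lectin that kills Gram-positive bacteria, had 724 (671 to 780) in cystic organoids but no read in dense ones, at least 252-fold. Agr2 (ENSMUSG00000020581), an endoplasmic reticulum disulphide isomerase needed for mucin folding in the mouse gut, had 634 (585 to 687) against 8.60 (3.93 to 16.3), which is 73.7-fold (38.6 to 162). Tff2 (ENSMUSG00000024028), a trefoil peptide of gastric mucus, had 73.2 (57.1 to 92.5) and no read, at least 25.5-fold. Msln, Chil1, Pigr, Reg3g, Agr2, Tff2, Lyz2 and Camp all had a higher value in cystic organoids. For Lyz2, the lysozyme of macrophages, and Camp, the cathelicidin of neutrophils, that rests on 4 against 1 and 2 against 1 reads, and their intervals of the fold include 1. Of the transcript 50-mers of Lyz2, 15.4% also occur in Lyz1. Of these 8 genes, 5 had a mean of at least 50, and all 5 were called higher in cystic organoids. Among all genes at that level, 7.86% were.

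Mucin transcripts were scarce in both libraries. The 8 mucin genes summed to 412 normalized counts for cystic and 239 for dense organoids, and most of that was Muc15, a membrane mucin, with 275 (243 to 310) against 237 (209 to 268). For Muc15 the fold was 1.16 in favour of cystic organoids (0.972 to 1.39), so the counting error alone covers the difference. Of the exon bases of Muc15, 1.71% lie under an antisense gene, whose part in its value was not tested. The other membrane mucins had reads in cystic organoids only. Muc20 had 48.1 (35.2 to 64.2) and Muc1, a widespread epithelial mucin, 45.0 (32.6 to 60.6). They were at least 16.8-fold and at least 15.7-fold higher than in dense organoids.

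Muc13 had 14.6 (8.01 to 24.6), Muc4 had 13.6 (7.24 to 23.3), and neither had a read in dense organoids. The gel-forming mucins were at the edge of detection. Muc5b had 8.37 (3.61 to 16.5) in cystic organoids but no read in dense ones, and Muc2, the main gut mucin, had 1.91 in dense organoids but no read in cystic ones. In all, 7 of the 8 mucins had the higher value in cystic organoids and 1, Muc2, in dense organoids. Only Muc15 reached the level for a call. Of the 8, 6 had reads in the cystic library only and 1 in the dense library only. Over all genes these shares were 13.7% and 11.1%. Muc4 and Muc20 overlap on opposite strands, over 5.33% and 15.6% of their exon bases. Whether counting used strand is not given in the sources used here, so reads in the overlap cannot be assigned.

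Secretoglobins, small secreted proteins of airway and gland fluids, and BPI-fold genes, whose products bind lipids of bacteria, were each led by 1 or 2 genes. Scgb1c1 (ENSMUSG00000038801) had 145 (122 to 172) in cystic organoids but no read in dense ones, at least 50.7-fold, with 18.7% of its exon bases under an antisense gene. The club cell gene Scgb1a1 had 1 read and Scgb3a2 had 3 reads in the dense library, and neither had any in the cystic one. The 5 lung and airway markers with a row summed to 127495 in cystic and 1886 in dense organoids, and Scgb1a1 is the 1 of them without a higher cystic value. Cyp2f2, a club cell cytochrome, had 124911 against 1338, and Abca3 had 2448 against 547. Foxj1, the regulator of motile cilia, had 126 and Napsa 10.5, with no read of either in dense organoids. Nkx2-1, the lung lineage factor, was on the same marker list but had no row, so it has no value here. The part of these markers in the secretoglobin values was not tested.

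The BPI-fold genes went both ways. Bpifc (ENSMUSG00000050108) had 720 (669 to 773) in dense organoids but no read in cystic ones, at least 229-fold higher. Bpifb1 (ENSMUSG00000027485), a secreted protein of airway mucus, had 93.1 (74.8 to 115) in cystic organoids but no read in dense ones, at least 32.5-fold. Bpifb4 and Bpifb5 had 10.5 and 5.23 in cystic organoids but no read in dense ones. Thus 3 of the 4 genes had their reads in the cystic library only and 1 in the dense library only. Over all genes these shares were 13.7% and 11.1%. Only Bpifc reached the level for a call.

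Peptidoglycan recognition proteins bind the bacterial cell wall, and their 4 genes were split between the libraries. Pglyrp1 (ENSMUSG00000030413), known as a bactericidal protein of neutrophil granules and mucosa, had 12498 (12274 to 12724) in cystic and 51.6 (38.8 to 67.4) in dense organoids, which is 242-fold (185 to 323). At 6803 normalized counts per kilobase it ranked 68 in the cystic library. Of the 4 neutrophil markers with a row, S100a8, S100a9 and Ly6g also had their higher value in cystic organoids and Cxcr2 in dense ones, with the values given above. Their part in the Pglyrp1 value was not tested.

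Pglyrp4 (ENSMUSG00000042250), a secreted form of skin and mucosa, showed the opposite, with 1390 (1319 to 1463) in dense organoids against 82.6 (65.4 to 103) in cystic ones, 16.8-fold (13.4 to 21.4). Its neighbour in the genome, Pglyrp3, had 83.7 (66.4 to 104) in cystic and 36.3 (25.7 to 49.9) in dense organoids, 2.30-fold higher in cystic (1.55 to 3.49) and under the 4-fold line. Pglyrp2, which encodes an amidase that cleaves peptidoglycan, had 33.5 (23.3 to 46.5) in dense organoids but no read in cystic ones, at least 10.7-fold, although 14.4% of its exon bases lie under an antisense gene. Summed over the family, the cystic library held 12664 and the dense library 1511 normalized counts.

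Beta-defensins, small cationic peptides that permeabilise microbes, had reads in dense organoids only. Defb14 (ENSMUSG00000046354) had 221 (193 to 251), at least 70.4-fold higher than in cystic organoids, and Defb1 (ENSMUSG00000044748) had 159 (136 to 185), at least 50.6-fold higher. Per kilobase these were unlike, since the short Defb14 reached 1082 and Defb1 182 normalized counts. Defb4 had 5.74 (2.10 to 12.5) and Defb5 had 1.91, the latter from 2 reads. Across the 4 genes the cystic library held no read, and for each gene the 95% interval of that 0 reaches 3.86 normalized counts. Over all genes, 11.1% had reads in the dense library only.

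Galectins bind galactose-containing sugars inside and outside the cell. Lgals3 (ENSMUSG00000050335), a galectin of many epithelia and macrophages, was high in both libraries, with 5765 (5614 to 5920) in cystic and 6609 (6454 to 6767) in dense organoids. Its fold in favour of dense organoids was 1.15 (1.11 to 1.19), and it stood at 3103 and 3557 normalized counts per kilobase. Lgals8, which marks damaged vesicles in human cells, had 1108 (1042 to 1177) and 1132 (1068 to 1198), 1.02-fold (0.940 to 1.11). The difference in Lgals8 is within the counting error.

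Around these near-equal genes, other galectins differed widely. Lgals7 (ENSMUSG00000053522), the galectin of stratified epithelia, had 2095 (2009 to 2185) in dense organoids but no read in cystic ones, at least 668-fold higher. Lgals1, which is widespread in connective tissue, had 888 (829 to 950) in cystic and 54.5 (41.3 to 70.6) in dense organoids, 16.3-fold (12.5 to 21.7). The fibroblast markers summed to 41.9 for the cystic and 13.4 for the dense library, and their part in the Lgals1 value was not tested. Lgals9 had 282 (250 to 318) against 6.69 (2.69 to 13.8), 42.2-fold (20.2 to 106), and Lgals12, known from fat cells, 94.2 (75.7 to 116) against 6.69 (2.69 to 13.8), 14.1-fold (6.56 to 36).

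Lgals4, a gut galectin next to Lgals7 in the genome, had 5.23 in cystic and 14.3 in dense organoids, with an interval of the fold from 0.947 to 9.64 that includes 1. Lgals2 had 1 read in the dense library. Summed over 8 genes, the galectins reached 8143 in cystic and 9919 in dense organoids. Lgals3bp (ENSMUSG00000033880), a secreted glycoprotein that binds galectin-3, did not follow Lgals3. It had 9764 (9567 to 9964) in cystic and 27.7 (18.6 to 39.8) in dense organoids, 352-fold (245 to 526).

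Companion lists of genes that regulate, load or accompany these proteins were read beside them. All genes at the level for a call, the background for each list, had a median log2 ratio of -0.033. A cystic call was reached by 7.86% of them and a dense call by 7.65%. The regulators of secretory epithelial cells had 11 genes at that level, with a median of 1.31. Of these, 3 reached a cystic call and 2 a dense call. By direction alone, 8 had the larger value in the cystic library and 3 in the dense one. Foxa1, a pioneer factor of glandular epithelia, was 32.8-fold (23.5 to 47.4), Xbp1, a factor of the secretory apparatus, 6.71-fold (6.54 to 6.89) and Cebpd 7.97-fold (7.17 to 8.87) higher in cystic organoids. Cebpa was 13.1-fold (10.2 to 17.2) and Elf5 7.30-fold (5.64 to 9.57) higher in dense organoids. The most abundant pair were Xbp1, with 42382 against 6318 normalized counts, and Cebpb, with 9984 against 4028.

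The mucin assembly, granule and exocytosis list had 19 genes at that level, with a median of 0.22. Of these, 2 reached a cystic call and 5 a dense call. By direction alone, 10 had the larger value in the cystic library and 9 in the dense one. Myo5c, an unconventional myosin of secretory granules in exocrine cells, had 985 in cystic organoids but no read in dense ones. Clca2 had 739, Gcnt3, a mucin core glycosyltransferase, 212, and neither had a read in cystic organoids. Galnt6, which starts mucin-type glycans, was 27.6-fold higher in dense organoids (16.8 to 48.7). Among surfactant handling and alveolar type II genes, 2 of 7 were called for cystic and 1 for dense organoids, with a median of 1.70. Abca3, the lipid pump of lamellar bodies, had 2448 against 547 normalized counts (4.48-fold, 4.08 to 4.92). Hopx, known in the alveolus from type I cells, was 61.9-fold higher in dense organoids (54.6 to 70.3).

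Other antimicrobial and mucosal defence genes, 17 at that level, had a median of 4.05, with 10 called for cystic and 4 for dense organoids. The 4 were Slpi, Duox1, Duoxa1 and Chit1, of which all but Duoxa1 were named after their values were seen. Duoxa1, which matures a peroxide-producing oxidase, had 1462 normalized counts in dense organoids but no read in cystic ones. Slpi, a protease inhibitor of mucosal fluids, had 37224 in dense organoids against 3221 in cystic ones, 11.6-fold (11.1 to 11.99). Lcn2, Ltf, Lbp and Saa3, defence and acute phase genes, were higher in cystic organoids.

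Genes of immunoglobulin A transport had 6 members at that level, with a median of 0.69. Only 2 of them reached a call, both on the cystic side. By direction alone, 4 had the larger value in the cystic library and 2 in the dense one. One of these 2, Il17rc, had 3316 normalized counts in the dense library against 1981. Ccl28, a chemokine that draws antibody-secreting cells to mucosa, had 4617 normalized counts against 1 read in dense organoids, 4830-fold higher in cystic ones with an interval from 866 to 190812. Fcgrt, the neonatal Fc receptor, was 24.8-fold higher in cystic organoids (13.6 to 50.3). Other mucin-type and sialomucin genes had 4 at that level, with a median of 1.80. A call was reached by 2, again on the cystic side only. By direction alone, 3 had the larger value in the cystic library and 1 in the dense one. That gene, Cd34, had 6330 normalized counts in the dense library against 2220, which is 2.85-fold (2.715 to 2.996). Parm1 was 9.55-fold (8.49 to 10.8) and Podxl 8.46-fold (4.92 to 15.6) higher in cystic organoids, while Cd164 had 12624 and 8335 normalized counts.

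**Figure D4:**
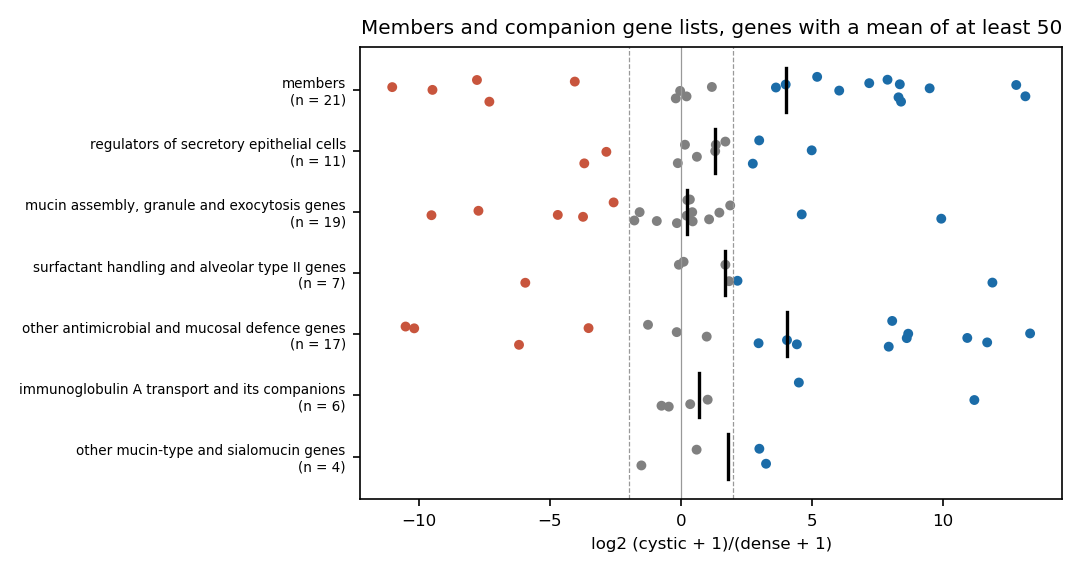
Log2 ratio of cystic to dense organoids (x axis, pseudocount 1) of each gene with a mean of at least 50, for the mucosal genes and 6 companion lists. Points past the dashed lines differ at least 4-fold, black bars are medians, and the median of the mucosal genes is 4.00.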

How the data were processed

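Per the labels' protocols, Smart-seq v4 amplified the RNA and an NEBNext DNA kit made the libraries. The authors deposited 1 table of a normalized read signal per gene (normalized counts). TopHat, DESeq 1.32.0 and mm9 are named in the submitters' processing notes. The step each served, the annotation and any use of strand: not given in the sources used here. The smallest value above 0 in each column divides 100% of its values into whole reads, within 0.001 read, so the size factors were 0.956 for cystic and 1.05 for dense organoids and reads were recovered. PCR reads without molecular identifiers are not independent molecules, so intervals and floors cover counting error only. The table's 2 ERCC spike-in rows, with 0 and 2 reads, were left out.

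With 1 library per group no count model can be fitted for a test, and none was run on the recovered reads. Log2 ratios used a pseudocount of 1, calls a mean of at least 50 and a 4-fold difference. Values have exact Poisson and folds exact Clopper-Pearson intervals at 95% (scipy 1.17.1). Levels were compared between genes per kilobase of merged exon length in GENCODE M21 (GRCm38), matched for 20589 genes by Ensembl identifier. The deposited table gives no coordinates, so those printed belong to RefSeq promoters in GRCm38.p6. Of the 41 genes, 34 shared no transcript 50-mer with another gene and 33 no exon base. Simulated counts were used to test the rule for calls. Genes and lists were chosen with earlier results of these data known. Every gene the name rule chose could be named. From each companion list those that could be named are up to 4 with the largest ratio and the 2 most abundant, and markers at any level. Not all of these are named. Jchain, Agr3, Slpi, Duox1 and Chit1 fall outside this rule and were named after their values were seen. A planned comparison of protein sequences was not made. Alternatives were other pseudocounts, filters, thresholds and scalings (total, upper quartile and TMM in edgeR 4.0.16).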

Additional observations from a re-analysis of the deposited data

How the results depend on the processing

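Total, upper quartile and TMM scaling and a pseudocount of 0.5 left the counts of mucosal genes at 12 called for cystic and 5 for dense organoids. They moved no value of the 21 genes beyond its counting interval. For genes with no read in 1 library that interval has no end on the side away from 0, so a smaller pseudocount could not move them out. With a pseudocount of 0.5 the log2 ratio of Reg3g went from 9.50 to 10.5. No log2 ratio of the 21 genes changed sign under any pseudocount or scaling tried. A pseudocount of 50 gave 10 and 5, moved 17 of the 21 ratios out of their interval, and brought the medians to 1.97 for the mucosal genes, 0.78 for the regulators, 3.15 for the other antimicrobial genes and 1.005 for the other mucin-type genes. With a mean of at least 1, 22 of 37 mucosal genes were called for cystic and 7 for dense organoids (median of the 37, 3.52). Of all 18563 genes that passed this filter, 2681 were called for cystic and 1939 for dense organoids. The other antimicrobial genes then had a median of 3.42. With a mean of at least 200, 9 of 15 mucosal genes were called for cystic and 3 for dense organoids. Of all 9251 genes that passed this filter, 561 were called for cystic and 606 for dense organoids. The medians were then 6.05 for the 15 mucosal genes, 0.034 for mucin assembly genes and 0.60 for the other mucin-type genes. A 2-fold threshold called 1767 and 1761 of all 11279 genes and a 10-fold threshold 544 and 525, while mucosal genes stayed at 12 or 13 and 5. The mean log2 ratio was 2.67 where the median was 4.00. That median was higher with each stricter filter, for a cause that was not tested. No paired analysis was possible because each group has 1 library. Some of the mucins and secretoglobins, and Defb4 and Defb5, rest on fewer than 10 reads, so their values are imprecise.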

Other observations

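The next gene on each side was read from the RefSeq map, taking protein-coding genes with a row in the table. The genes named here were chosen after their values were seen. Chil1, with 7157 normalized counts in cystic organoids but no read in dense ones, lies next to Chit1, a true chitinase gene, with 1519 in dense against 19.9 in cystic organoids (76.4-fold, 48.8 to 127). Agr2 lies between its paralog Agr3, with 16.7 in cystic organoids but no read in dense ones, and Tspan13, with 4080 against 66.0. All 3 had the higher value in cystic organoids. Msln lies next to its paralog Mslnl, which had 32.4 in cystic organoids but no read in dense ones.

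Pglyrp4 and Pglyrp3 are next to each other, between S100a9, with 1448 in cystic and 185 in dense organoids, and Lor, the loricrin gene of cornified skin, with 49.2 against 3664. Pglyrp4 is the one beside S100a9 and Pglyrp3 the one beside Lor, so in this stretch the direction differed from gene to gene. Defb14, Defb4, Defb5 and Defb1 follow each other, and each had reads in dense organoids only.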
